A study of Sus scrofa with 30 samples.

Results

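The 43 genes described here belong to the WNT, FGF and BMP families of signalling proteins; nearly all encode secreted ligands, and FGF12 and FGF14 encode FGF homologues that stay inside the cell. They were taken from a list of names, with 18 WNT, 18 FGF and 7 BMP genes, and all 43 were found among the 19484 protein-coding genes placed on chromosomes 1 to 18 and X of the pig RefSeq annotation (Sscrofa11.1). For each gene and each library, the length covered by peaks was measured in a window made of every base within 5 kb of either end of the gene, which is 20002 bp for a gene too long for its ends to meet. Values are given as covered bp or as percent of that window, and differences are in percentage points of the window.

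The study profiled 2 histone marks, H3K4me3 and H3K27me3, in oocytes and in vitro fertilised embryos of the pig, with a native chromatin immunoprecipitation protocol for very small samples (ULI-NChIP). H3K4me3 was profiled in GV oocytes, MII oocytes, 1-cell, 2-cell, 4-cell and 8-cell embryos, morulae and blastocysts, and H3K27me3 in the same stages apart from GV oocytes and 1-cell embryos. A further H3K4me3 group, labelled siKDM5BC, came from embryos collected as 4-cell embryos after siRNA to KDM5B/C had been injected at the zygote stage; KDM5B and KDM5C are enzymes that remove methyl groups from H3K4. Each of the 15 groups had 2 libraries, and the siKDM5BC group is compared with untreated 4-cell embryos because no library is labelled with a control siRNA, so injection and knockdown cannot be told apart. The sample titles do not say whether the siKDM5BC libraries were prepared together with the untreated ones. A difference between preparations therefore cannot be told apart from the siRNA either.

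WNT proteins are lipid-modified ligands that bind Frizzled receptors and LRP co-receptors, stabilising beta-catenin in the canonical branch and steering cell movement and polarity in the non-canonical branch. FGF proteins act through receptor tyrosine kinases and the MAPK cascade, and in the mammalian inner cell mass FGF signalling favours hypoblast over epiblast. BMP proteins bind serine/threonine kinase receptors that phosphorylate SMAD proteins, and they later help to pattern mesoderm and to induce germ cells. In pluripotent cells many genes of this kind are silent and carry H3K4me3, a mark of promoters, together with H3K27me3, the mark laid down by Polycomb complex 2.

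The 18 H3K4me3 libraries covered 31.6 to 178.8 Mb of the genome with 37481 to 119878 peaks, and the 12 H3K27me3 libraries covered 1.28 to 108.9 Mb with 2358 to 80700 peaks. No 2 libraries were identical. Coverage was uneven where it bears most on the results: the untreated 4-cell H3K4me3 libraries covered 56.4 and 31.6 Mb, the siKDM5BC libraries 178.8 and 164.3 Mb, and the 8-cell H3K27me3 libraries 5.65 and 34.2 Mb. Read totals were not available to these calculations, so depth is unknown and a longer covered length can reflect depth or enrichment as well as the mark. Peak lists do not measure RNA, so the knockdown itself could not be checked. The labels do not say that the 2 libraries of a group came from separate collections of embryos, so each p-value reflects the spread of these libraries alone, which may be technical. In pools of cells, fewer cells with a mark and less of the mark in each cell cannot be told apart, and a blastocyst holds several cell types.

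Several members sit close together, so their windows are not independent. WNT1 (chromosome 5, 15010607 to 15015007) overlaps the annotated span of WNT10B, and the same peaks were counted for both. WNT6 and WNT10A lie 7.844 kb apart, WNT9A and WNT3A 25.631 kb, and WNT3 and WNT9B 27.848 kb. FGF3 (chromosome 2, 3489208 to 3496532), FGF4 (3527113 to 3529011) and FGF19 (3583027 to 3586985) form a cluster with gaps of 30.58 and 54.015 kb. The windows of 9 members hold the end of another gene, among them FGF17 (DMTN), FGF21 (FUT1), WNT10B (ARF3) and BMP6 (TXNDC5), and peaks there cannot be assigned to the ligand gene alone.

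**Figure D1:**
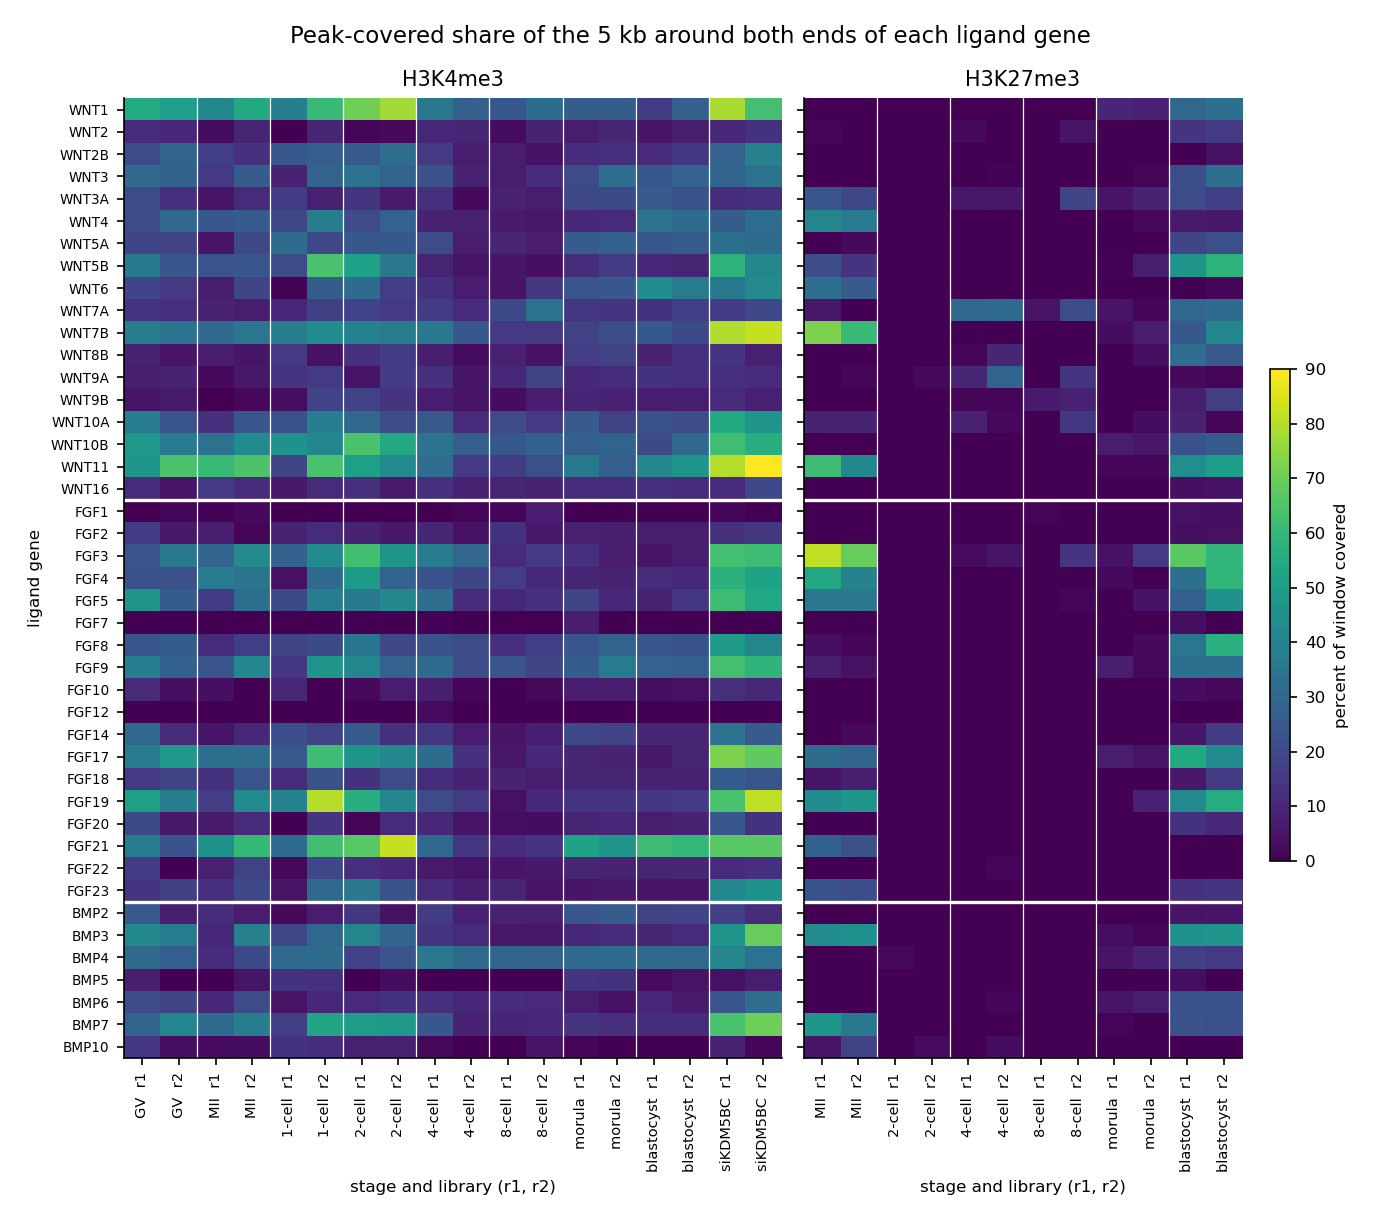
Percent of each gene's window covered by peaks (colour scale) for the 43 members (vertical axis, white lines between families) in the 18 H3K4me3 and 12 H3K27me3 libraries (horizontal axis). H3K4me3 was found at most members in every group and was widest in the siKDM5BC libraries, whereas H3K27me3 was wide in MII oocytes and blastocysts and nearly missing from the 2-cell libraries.

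H3K4me3 was present at most of these genes at every stage. Up to the 4-cell stage it was wider than at the average gene in all 3 families, and from the 8-cell stage on only in WNT genes. At the 6 stages profiled for both marks, 38 or 39 of the 43 members had an H3K4me3 peak in both libraries, against 72.6% of all genes in MII oocytes, 80.8% in 2-cell, 75.7% in 4-cell and 79.9% in 8-cell embryos, 82.8% in morulae and 82.4% in blastocysts. The WNT mean exceeded the all-gene mean in 18 of 18 libraries, whereas the FGF mean and the BMP mean each did so in 12 of 18. Relative to the all-gene mean, FGF and BMP genes were at -2.62 and -1.27 points in 8-cell embryos and -3.88 and -2.56 in morulae. In 2-cell embryos the mean covered share was 27.8% ± 1.97 for WNT, 25.4% ± 2.90 for FGF and 19.4% ± 1.08 for BMP genes (SD, n = 2 libraries), against 16.7% ± 1.63 over all genes. In blastocysts the WNT mean was 20.6% ± 0.977 (SD, n = 2), while the FGF mean of 11.9% ± 0.322 and the BMP mean of 11.8% ± 0.00240 lay below the all-gene mean of 17.8% ± 0.178. The WNT mean was higher than the FGF mean in 17 of 18 libraries, and the gap between them in blastocysts was 8.65 ± 0.656 points (SD, n = 2). FGF12, a modulator of sodium channels, had an H3K4me3 peak in 1 library and was not tested for that mark. Over the 8 untreated stages, 19 of the 42 tested members differed between stages (9 WNT, 5 FGF and 5 BMP), against 57.2% of all genes tested.

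**Figure D2:**
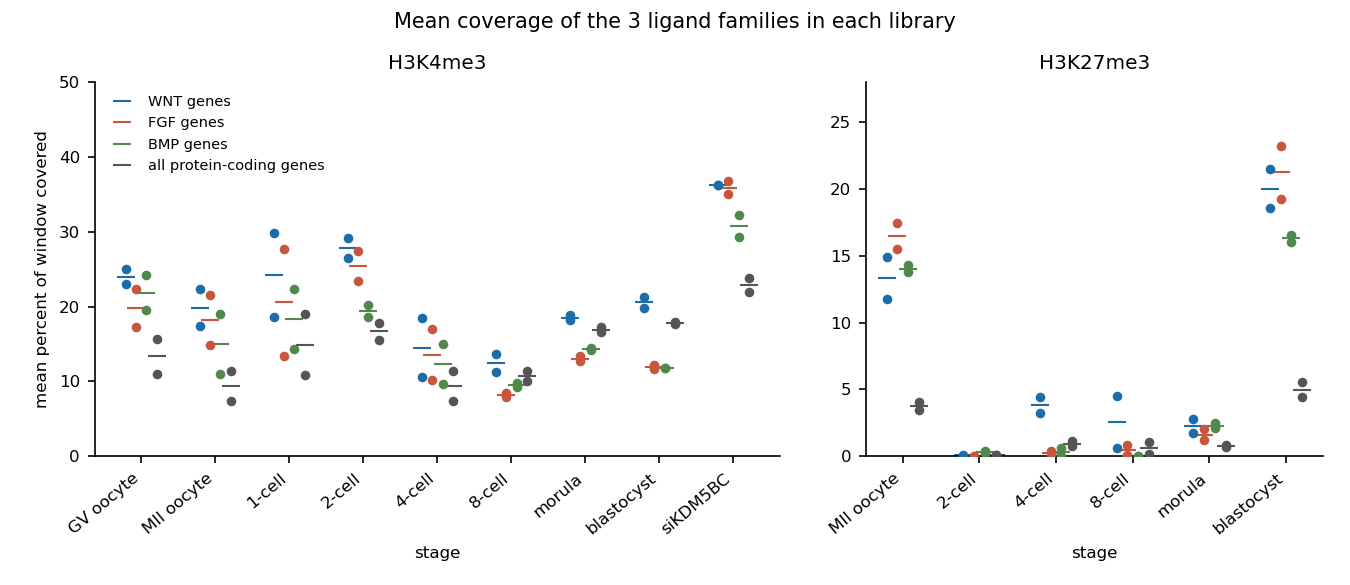
Mean percent of the window covered (vertical axis) by stage (horizontal axis) for WNT, FGF and BMP genes and for all genes, in the H3K4me3 and H3K27me3 panels. Each dot is 1 library and each dash the mean of 2; for H3K4me3 the siKDM5BC libraries reach 36.3% for WNT, 35.9% for FGF and 30.7% for BMP genes, and for H3K27me3 the blastocyst libraries reach 20.002%, 21.2% and 16.3%.

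Between 2-cell and 4-cell embryos, around the time at which the pig embryonic genome is activated, H3K4me3 became narrower at 6 members: WNT1, WNT10B, WNT2B, WNT5B, FGF21 and BMP7. That is 6 of 42 tested members (14.3%) against 12.4% of all genes, and 0 of 42 rose, against 0.17% of all genes. The count is thus near the share over all genes and shows no trait particular to the members. WNT1 and WNT10B overlap and share peaks, so their 2 calls are not independent. At an unadjusted limma p under 0.05, 17 members were lower and 2 higher. At WNT1, a canonical WNT best known from midbrain patterning, peaks covered 10134 and 11170 bp at the 2-cell stage and 5160 and 3961 bp at the 4-cell stage. The fall was from 74.0% to 31.7% of the window, a difference of -42.3 points (SE 9.13, adjusted p = 0.0105), with both 4-cell libraries below both 2-cell libraries. WNT5B, a non-canonical ligand, went from 10336 and 7120 bp to 1875 and 993 bp, a difference of -36.5 points (SE 10.2, adjusted p = 0.0316).

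FGF21, which encodes a liver hormone of the endocrine FGF branch, had 7919 and 9740 bp at the 2-cell stage and 3600 and 1695 bp at the 4-cell stage. It fell by 52.0 points (SE 10.5, adjusted p = 0.00757), the largest difference among the members, and the groups did not overlap. FGF19, the intestinal hormone that restrains bile acid synthesis, held 7881 and 5857 bp and then 2938 and 2111 bp, and its difference of -31.1 points (SE 11.4) missed the threshold at adjusted p = 0.0858. BMP7, a BMP needed for kidney and eye development, held 9862 and 9682 bp in 2-cell and 4915 and 1751 bp in 4-cell libraries, and fell by 32.2 points (SE 9.17, adjusted p = 0.0339). BMP3, an atypical BMP that opposes other BMPs in bone, held 8179 and 5888 bp and then 2802 and 2111 bp, with a difference of -22.9 points (SE 8.51, adjusted p = 0.0901) that missed the threshold.

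The 2-cell to 4-cell count rested on single libraries and on weak peaks. Without the second 4-cell library 0 members were called lower, without the first 3, and without the first 2-cell library 2. With peaks kept only at a −log10 q of 3 or more, 0 members were called lower and 6 higher, and the median member difference went from -8.85 to 9.04 points while that of all genes went from -5.10 to 5.56. With quantile scaling of the libraries, 3 members were called lower and 2 higher and the median over members was 0.128 points. Over all genes, 2 were called lower and 1971 higher with that q minimum, and 670 lower and 500 higher with quantile scaling.

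In siKDM5BC embryos, H3K4me3 was wider than in untreated 4-cell embryos at 24 of the 42 tested members and narrower at 0, against 39.2% and 0.0713% of all genes tested; at an unadjusted limma p under 0.05 these were 27 and 0 members. The WNT genes called higher were 10 of 18 (WNT1, WNT2B, WNT4, WNT5A, WNT5B, WNT6, WNT7B, WNT10A, WNT10B and WNT11), the FGF genes 11 of 17 (FGF3, FGF4, FGF5, FGF8, FGF9, FGF14, FGF17, FGF18, FGF19, FGF21 and FGF23), and the BMP genes 3 of 7 (BMP3, BMP6 and BMP7). The median difference was 18.7 points over the members and 9.46 points over all genes, and by family it was 19.5 for WNT, 23.3 for FGF and 5.76 for BMP. With quantile scaling, which gives every library the same distribution of values, 0 members were called higher and 1 lower, and the medians were -0.423 points over the members, -1.51 for WNT, 0.518 for FGF and 1.44 for BMP. The scaling therefore ended every one of the 24 calls and turned the direction of the WNT median. With it, 612 of all genes tested were called higher and 257 lower. Leaving out the second 4-cell library, the one with the smallest covered length, reduced the count from 24 to 11.

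Among WNT genes the widest gains were at WNT11 and WNT7B. WNT11 (chromosome 9, 10413182 to 10435158), a non-canonical ligand known from gastrulation movements, held 6420 and 3064 bp in untreated 4-cell libraries and 15894 and 18394 bp in siKDM5BC libraries. Its covered share rose from 23.7% to 85.7%, by 62.0 points (SE 12.04, adjusted p = 0.00137). WNT7B (chromosome 5, 3521412 to 3572322), which acts in lung, kidney and placenta, went from 7232 and 4872 bp to 15850 and 16419 bp, a rise of 50.4 points (SE 6.24, adjusted p = 9.12e-05). In neither gene did the groups overlap, and most of the window was under peaks in siKDM5BC libraries. The difference at WNT3, a ligand needed to start gastrulation in mouse, was 16.01 points and missed the threshold at adjusted p = 0.0726.

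FGF19 and FGF17 had the widest gains among FGF genes. FGF19 held 2938 and 2111 bp in untreated and 8949 and 11349 bp in siKDM5BC libraries, from 18.1% to 72.7% of its window, and rose by 54.6 points (SE 11.4, adjusted p = 0.00215). FGF17 (chromosome 14, 6310840 to 6315465), a close relative of FGF8 that acts in the midbrain and hindbrain, held 4663 and 1878 bp and then 10559 and 9938 bp, and rose by 47.7 points (SE 9.37, adjusted p = 0.00148). All siKDM5BC libraries were above all untreated 4-cell libraries at both genes. FGF4, the ligand of the mouse inner cell mass, rose by 34.2 points (adjusted p = 0.00363), and FGF5, which is switched on in the mouse epiblast after implantation, by 35.7 points (adjusted p = 0.00538). Members with little H3K4me3 in either group included FGF7, a ligand for epithelial cells, which had 0.495% and 0%, and FGF1, which had 0.567% and 0.712%.

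BMP genes split into 3 that rose and 4 that were not called. BMP7 (chromosome 17, 57567770 to 57676516) held 4915 and 1751 bp in untreated and 12849 and 14048 bp in siKDM5BC libraries, and rose from 16.7% to 67.2%, by 50.6 points (SE 9.17, adjusted p = 0.000903). BMP3 (chromosome 8, 136880456 to 136904739) held 2802 and 2111 bp and then 9291 and 13798 bp, and rose by 45.4 points (SE 8.51, adjusted p = 0.00111). BMP6 rose by 17.0 points (adjusted p = 0.00374). BMP4, the ligand that induces mesoderm and germ cells, had 33.3% in untreated and 37.5% in siKDM5BC embryos, a difference of 4.15 points (SE 5.39, adjusted p = 0.554), and BMP2 had 12.01% and 13.996%. BMP7 gained at both of its ends: the end at the lower coordinate held 3900 and 4047 bp in siKDM5BC libraries and the other end 8949 and 10001 bp.

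The peaks themselves were longer in the siKDM5BC libraries. The median length of the widest peak at a member was 3994 and 5129.5 bp in the 2 siKDM5BC libraries, against 2176 and 1635 bp in untreated 4-cell embryos and 2787 and 2475.5 bp in 2-cell embryos. A peak of 5 kb or more was found at 18 and 20 members after siKDM5BC, at 3 and 1 members in untreated 4-cell embryos and at 10 and 7 in 2-cell embryos. The longest ran for 17220 bp at BMP7, 16502 bp at WNT11, 16352 bp at WNT7B and 13400 bp at FGF19. No p is given for these lengths because they come from the same libraries and peaks as the covered share. Peaks were longer across the genome too. The median over all peaks was 1183 and 1221 bp in siKDM5BC, 714 and 656 bp in untreated 4-cell and 723 and 681 bp in 2-cell libraries. Widest peaks were not counted over all genes, so these lengths do not show a trait particular to the members.

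Compared with 2-cell embryos, 3 of the 42 tested members were higher in siKDM5BC embryos and 0 were lower, against 8.77% and 0.587% of all genes tested; at an unadjusted limma p under 0.05 these were 13 and 0 members. WNT7B had 7909 and 7654 bp in 2-cell libraries and, at 41.8 points higher (SE 6.24, adjusted p = 0.00184), did not overlap the siKDM5BC values above. WNT10A, a ligand of tooth and hair development, held 6064 and 4220 bp in 2-cell and 10940 and 9351 bp in siKDM5BC libraries, and rose by 25.0 points (SE 7.39, adjusted p = 0.0463). BMP6 held 2153 and 2672 bp and then 4783 and 6414 bp, and rose by 15.9 points (SE 3.88, adjusted p = 0.0203). The differences at WNT11 (38.9 points, adjusted p = 0.0553), FGF17 (25.9 points, adjusted p = 0.0942), FGF9 (25.9 points, adjusted p = 0.106), BMP3 (22.6 points, adjusted p = 0.109) and BMP7 (18.4 points, adjusted p = 0.222) missed the threshold. With quantile scaling 0 members were called, with a −log10 q of 3 or more 35 were, and leaving out the second 2-cell or the second siKDM5BC library left 1. Over all genes, 43 were called higher and 25 lower with quantile scaling, and 10954 higher and 0 lower with that q minimum. This comparison shares its siKDM5BC libraries with the one against untreated 4-cell embryos.

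The 4-cell stage and the blastocyst were also compared. WNT6, a ligand of somite and kidney epithelia, held 2567 and 1401 bp in 4-cell and 8779 and 7480 bp in blastocyst libraries, and rose by 30.7 points (SE 7.46, adjusted p = 0.00576). WNT4, needed for kidney and female gonad development, held 1802 and 1635 bp and then 6730 and 6344 bp, and rose by 24.1 points (SE 5.60, adjusted p = 0.00440). FGF21 rose from 3600 and 1695 bp to 7309 and 7111 bp, by 38.4 points (SE 10.5, adjusted p = 0.0118). These 3 with WNT3A (16.8 points, SE 4.35, adjusted p = 0.00883) made 4 of 42 members called higher, against 27.9% of all genes, and the groups overlapped at none of them.

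FGF3, a ligand of inner ear development, went the other way: it held 6625 and 5136 bp in 4-cell and 854 and 1264 bp in blastocyst libraries, and fell by 27.8 points (SE 7.58, adjusted p = 0.0119). It was the only member called lower, against 0.219% of all genes. The differences at BMP2 (5.71 points) and BMP7 (-4.75 points) did not pass the threshold. Without the second 4-cell or the first blastocyst library 1 member was called higher, and without the first 4-cell library or either blastocyst library 0 were called lower. With quantile scaling 1 member was called higher and 10 lower, with family medians of -3.82 points for WNT, -10.7 for FGF and -11.5 for BMP in place of 3.22, -0.567 and -1.997. Over all genes, 1971 were called higher and 1050 lower with that scaling.

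From MII oocytes to blastocysts, H3K4me3 widened at 37.5% of all genes tested but at 3 of 42 members (WNT6, WNT3A and BMP4), and narrowed at 4 members (WNT1, FGF3, FGF4 and FGF17) against 4.73% of all genes. WNT6 held 1423 and 3767 bp in MII oocytes, and with the blastocyst values above rose by 27.7 points (SE 7.46, adjusted p = 0.00801). WNT1 held 6046 and 7870 bp in the oocytes but 2307 and 3956 bp in blastocysts, and fell by 26.6 points (SE 9.13, adjusted p = 0.0294). BMP4 (chromosome 1, 183415989 to 183422888) held 1929 and 3347 bp and then 5175 and 5141 bp, and rose by 14.9 points (SE 5.39, adjusted p = 0.0368). WNT3A, a ligand of trunk mesoderm, held 929 and 2214 bp and then 5158 and 4497 bp, and rose by 16.3 points (SE 4.35, adjusted p = 0.00764).

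All 3 FGF genes called here fell, and their oocyte and blastocyst libraries did not overlap. FGF3 went from 5089 and 7488 bp to 854 and 1264 bp, by -30.2 points (SE 7.58, adjusted p = 0.00522). FGF4 went from 4357 and 4103 bp to 1414 and 1234 bp, by -24.4 points (SE 7.78, adjusted p = 0.0203), and FGF17 from 4827 and 4711 bp to 893 and 1386 bp, by -24.8 points (SE 9.37, adjusted p = 0.0446). BMP7 held 6290 and 7725 bp in the oocytes but 2377 and 2388 bp in blastocysts, and its difference of -23.1 points (SE 9.17) missed the threshold at adjusted p = 0.0544. The median difference was -1.22 points over the members (3.83 for WNT, -3.41 for FGF and -2.77 for BMP) and 6.92 over all genes.

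These MII oocyte to blastocyst counts depended on single libraries and on the scaling. Without the first MII or the first blastocyst library 0 members were called higher, without the second MII library 0 were called lower, and without either blastocyst library 1 was. With a −log10 q of 3 or more, 29 members were called higher and 0 lower, and the family medians became 15.7 points for WNT, 8.17 for FGF and 11.1 for BMP. With quantile scaling 0 were called higher and 18 lower, and all 3 medians were negative, at -9.97, -13.1 and -5.86 points. Over all genes, 13416 were called higher and 0 lower with that q minimum, and 3375 higher and 2992 lower with quantile scaling. With a fit to these groups alone, 5 members were called higher and 8 lower.

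H3K27me3 was wide at part of these genes in MII oocytes, nearly missing in 2-cell embryos and wide at most of them in blastocysts. In MII oocytes 20 members (7 WNT, 10 FGF and 3 BMP) had a peak in both libraries, against 18.3% of all genes. A further 5 had a peak in 1 library, and 18 (7 WNT, 7 FGF and 4 BMP) held 0 bp in both. The oocyte means below therefore rest on a subset such as WNT7B, WNT11, FGF3 and BMP3. In MII oocytes the mean covered share was 13.4% ± 2.20 for WNT, 16.5% ± 1.35 for FGF and 14.04% ± 0.345 for BMP genes, against 3.76% ± 0.411 over all genes (SD, n = 2 libraries). In blastocysts it was 20.002% ± 2.07, 21.2% ± 2.84 and 16.3% ± 0.347, against 4.97% ± 0.802. In 2-cell embryos the 3 family means were 0.0643%, 0% and 0.327%, and the all-gene mean was 0.0805%. Of the 38 members that could be tested, 35 differed over the 6 stages, against 58.3% of all genes tested. The members not tested were WNT2B, FGF7, FGF12, FGF22 and BMP5, with peaks in fewer than 2 libraries, so the tested members are those that carried the mark somewhere.

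From MII oocytes to 2-cell embryos, H3K27me3 fell at 15 of the 38 tested members, against 23.4% of all genes tested. It rose at 0 members and at 0% of all genes tested. At an unadjusted limma p under 0.05, 18 members were lower and 0 higher. The 15 that fell were 6 of 17 WNT genes (WNT3A, WNT4, WNT5B, WNT6, WNT7B and WNT11), 7 of 15 FGF genes (FGF3, FGF4, FGF5, FGF17, FGF19, FGF21 and FGF23) and 2 of 6 BMP genes (BMP3 and BMP7). FGF21 had H3K27me3 peaks in the MII oocyte libraries only and so entered the test through the group where it is high. WNT6 also passed the filter only through its oocyte libraries, with no other H3K27me3 than 322 bp in the second blastocyst library. WNT7B held 14437 and 12182 bp in the oocytes but 0 bp in both 2-cell libraries, a difference of -66.5 points (SE 5.48, adjusted p = 4.37e-05). WNT11 held 12343 and 8404 bp and then 0 bp in both, a difference of -51.9 points (SE 5.54, adjusted p = 0.000189). At FGF3 the oocyte libraries held 14097 and 11959 bp, and the difference to 0 bp in both 2-cell libraries was -75.2 points (SE 6.23, adjusted p = 4.50e-05).

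FGF4 held 6361 and 4792 bp in the oocyte libraries and fell by 46.9 points (SE 7.50, adjusted p = 0.00189). BMP3 held 8716 and 9106 bp and fell by 44.6 points (SE 1.99, adjusted p = 1.88e-06), and BMP7 held 9532 and 7224 bp and fell by 41.9 points (SE 3.30, adjusted p = 3.39e-05). At each of these genes both 2-cell libraries were at 0 bp. The median over the members was -4.31 points (-1.07 for WNT, -6.51 for FGF and -5.23 for BMP) and over all genes -0.605. With a −log10 q of 3 or more the count fell from 15 to 6, and over all genes from 2465 to 371. With no filter on low values it was 10 of 43 members, against 4.63% of all genes. The 2-cell lists covered 2.01 and 1.28 Mb of the genome, against 71.4 and 61.9 Mb in MII oocytes, and what part depth and enrichment had in the loss was not tested.

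In 4-cell embryos a small group of WNT genes carried H3K27me3. The WNT mean was 3.84% ± 0.849 there, against 0.265% ± 0.171 for FGF and 0.317% ± 0.448 for BMP genes (SD, n = 2), and the WNT mean was 3.58 ± 0.678 points above the FGF mean. Both 4-cell libraries had a peak at 7 members, against 9.97% of all genes, and of these 6 were WNT genes (WNT3A, WNT7A, WNT8B, WNT9A, WNT9B and WNT10A) and the other FGF3. WNT7A (chromosome 13, 70538802 to 70602464), which gives the limb its dorsal identity, was the only member called between 2-cell and 4-cell embryos, 1 of 38 against 3.26% of all genes tested. It held 0 bp in both 2-cell libraries, 6045 and 6173 bp in 4-cell, 971 and 4268 bp in 8-cell, 919 and 268 bp in morula and 5931 and 6301 bp in blastocyst libraries.

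The rise at WNT7A was 30.5 points (SE 4.80, adjusted p = 0.0151), and its 4-cell H3K27me3 lay wholly at the end with the higher coordinate. The end with the lower coordinate held most of the 4-cell H3K4me3, at 2604 and 2222 bp. H3K4me3 at the higher coordinate was 583 and 0 bp in 4-cell and 1864 and 4446 bp in 8-cell libraries. The annotation used gives no strand, so which end is the start of the gene was not read. WNT9A held 1907 and 5791 bp in 4-cell libraries, and its difference of 18.1 points (SE 6.11) missed the threshold at adjusted p = 0.241. The differences at FGF3 (3.89 points), BMP4 (-0.896 points) and BMP6 (0.64 points) were not called. The WNT7A call was lost without either 2-cell library, without the second 4-cell library and with no filter on low values. With a −log10 q of 3 or more no member was called and the gap between the WNT and FGF means was 0.

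From morulae to blastocysts H3K27me3 rose at 32 of the 38 tested members, against 44.2% of all genes tested, and fell at 0, against 0.057% of all genes, with 32 and 0 also at an unadjusted limma p under 0.05. The members that rose were 13 of 17 WNT, 14 of 15 FGF and 5 of 6 BMP genes, and 25 of them rose by 10 points or more. Those not called were WNT3A, WNT6, WNT9A, WNT10A, FGF21 and BMP10. Of the 32, 5 (WNT16, FGF2, FGF10, FGF20 and BMP2) had peaks in blastocyst libraries only and so entered the test through the group where they are high. WNT5A, FGF1 and FGF14 had a peak in a single library elsewhere, so they too passed the filter only through their blastocyst libraries. With no filter on low values, 11 of 43 members were called, against 3.65% of all genes.

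WNT5B (chromosome 5, 68627158 to 68731938) held 206 and 1425 bp in morula and 9347 and 11641 bp in blastocyst libraries, and rose by 48.4 points (SE 4.08, adjusted p = 5.83e-05). WNT11 held 232 and 257 bp and then 8806 and 10055 bp, and rose by 45.9 points (SE 5.54, adjusted p = 0.000313). FGF3 held 748 and 2587 bp and then 11591 and 10239 bp, and rose by 53.4 points (SE 6.23, adjusted p = 0.000265). The morula and blastocyst libraries were far apart at each of these genes, and at FGF3 peaks covered 63.0% of the window in blastocysts.

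FGF8 (chromosome 14, 112808215 to 112814225), a ligand of gastrulation and of limb and brain organisers, held 0 and 374 bp and then 5676 and 9119 bp, and rose by 45.0 points (SE 5.67, adjusted p = 0.00039). BMP3 went from 637 and 240 bp to 9110 and 9416 bp, a rise of 44.1 points (SE 1.99, adjusted p = 8.9e-06). BMP7 went from 307 and 0 bp to 4451 and 4362 bp, a rise of 21.3 points (SE 3.30, adjusted p = 0.00115). The median over the tested members was 15.4 points, with 17.9 for WNT, 13.2 for FGF and 12.9 for BMP, and over all genes tested it was 3.55. The morula libraries covered 10.8 and 13.6 Mb of the genome and the blastocyst libraries 84.7 and 108.9 Mb, and the part of this in the rise was not tested. With quantile scaling 13 members were called and the medians were 2.82, 3.65 and 0.501 points. With a −log10 q of 3 or more 9 members were called, and with a fold of 3.5 or more 19. Over all genes, 1337 were called higher and 337 lower with quantile scaling, and 625 higher with the q minimum.

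The oocyte and blastocyst patterns were not the same. H3K27me3 was higher in blastocysts at 21 of 38 members (10 WNT, 8 FGF and 3 BMP) and lower at 7 (WNT4, WNT6, WNT7B, FGF21, FGF23, BMP7 and BMP10), against 37.1% and 16.3% of all genes tested. Of the 21, WNT16, FGF2, FGF10, FGF20 and BMP2 had peaks in blastocyst libraries only, and of the 7, FGF21 in MII oocyte libraries only, so these 6 entered the test through the group where they are high. WNT5A, FGF1 and FGF14 likewise passed the filter only through their blastocyst libraries, and WNT6 only through its oocyte libraries. Each of them had a peak in a single library elsewhere. FGF8 held 615 and 175 bp in MII oocytes and was 43.7 points higher in blastocysts (SE 5.67, adjusted p = 0.000332). WNT5B held 4241 and 2791 bp in oocytes and was 34.9 points higher (SE 4.08, adjusted p = 0.000189). FGF9, which drives male gonad development, held 1506 and 799 bp and then 6592 and 6580 bp, a rise of 27.2 points (SE 2.10, adjusted p = 2.15e-05).

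BMP6 held 0 bp in both oocyte libraries and 4523 and 4551 bp in blastocysts, a rise of 22.7 points (SE 1.33, adjusted p = 5.71e-06). In the other direction, WNT7B held 14437 and 12182 bp in oocytes and 4968 and 8248 bp in blastocysts, and fell by 33.5 points (SE 5.48, adjusted p = 0.00116). WNT4 held 8192 and 7448 bp and then 1322 and 1239 bp, and fell by 32.7 points (SE 1.69, adjusted p = 3.32e-06). Oocyte and blastocyst libraries did not overlap at any of these genes.

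WNT6 went from 6557 and 5170 bp to 0 and 322 bp, a fall of 28.5 points (SE 2.10, adjusted p = 1.81e-05), and it is also a gene at which H3K4me3 widened. FGF21 (chromosome 6, 54082653 to 54084532) went from 3311 and 2636 bp to 0 bp in both, and fell by 25.0 points (SE 1.76, adjusted p = 1.37e-05), and these oocyte peaks are what brought it into the test. BMP7 held 9532 and 7224 bp in oocytes and 4451 and 4362 bp in blastocysts, and fell by 19.9 points (SE 3.30, adjusted p = 0.00127). These 3 genes were below their oocyte values in both blastocyst libraries.

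FGF23, the phosphate-regulating hormone, held 4440 and 4202 bp in oocytes and 2494 and 2653 bp in blastocysts, and fell by 8.97 points (SE 1.24, adjusted p = 0.000433). BMP10, a ligand of the developing heart, held 1072 and 3673 bp and then 0 bp in both, and fell by 11.9 points (SE 3.55, adjusted p = 0.0223). With a −log10 q of 3 or more 8 members were called higher and 7 lower, beside 626 and 357 over all genes. The median over the members then went from 4.04 to 0.891 points. By family it went from 11.9 to 0.324 for WNT, from 3.92 to -7.88 for FGF and from 3.41 to 16.3 for BMP. With no filter on low values 10 members were higher and 3 lower, against 5.71% and 3.08% of all genes. The H3K27me3 comparisons of MII oocytes with 2-cell embryos and of morulae with blastocysts share oocyte or blastocyst libraries with this one.

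Counted by presence, 17 members had an H3K27me3 peak in both libraries of MII oocytes and in both of blastocysts (6 WNT, 9 FGF and 2 BMP). A further 18 had it in blastocysts only by this count (10 WNT, 5 FGF and 3 BMP), 3 in MII oocytes only (WNT6, FGF21 and BMP10), and 5 in neither (WNT2B, FGF7, FGF12, FGF22 and BMP5). Stage by stage, 20 members had it in MII oocytes and 35 in blastocysts, against 18.3% and 32.5% of all genes. The joint counts were not set against all genes, so they do not show a split particular to the members. Of the bases under H3K27me3 in both oocyte libraries at the members, 40.1% were also under it in both blastocyst libraries, with 24.3% for WNT, 52.3% for FGF and 47.9% for BMP genes and 21.1% over all genes. At FGF3 this was 8003 of 11930 bp. Blastocyst H3K27me3 covered 19.9% of the member windows and 4.97% over all genes, and the overlap was not tested against this. BMP7 showed a change of place as well as of length: in oocytes the end at the lower coordinate held 5145 and 5593 bp and the other end 4387 and 1631 bp, and in blastocysts they held 0 and 263 bp and 4451 and 4099 bp.

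**Figure D3:**
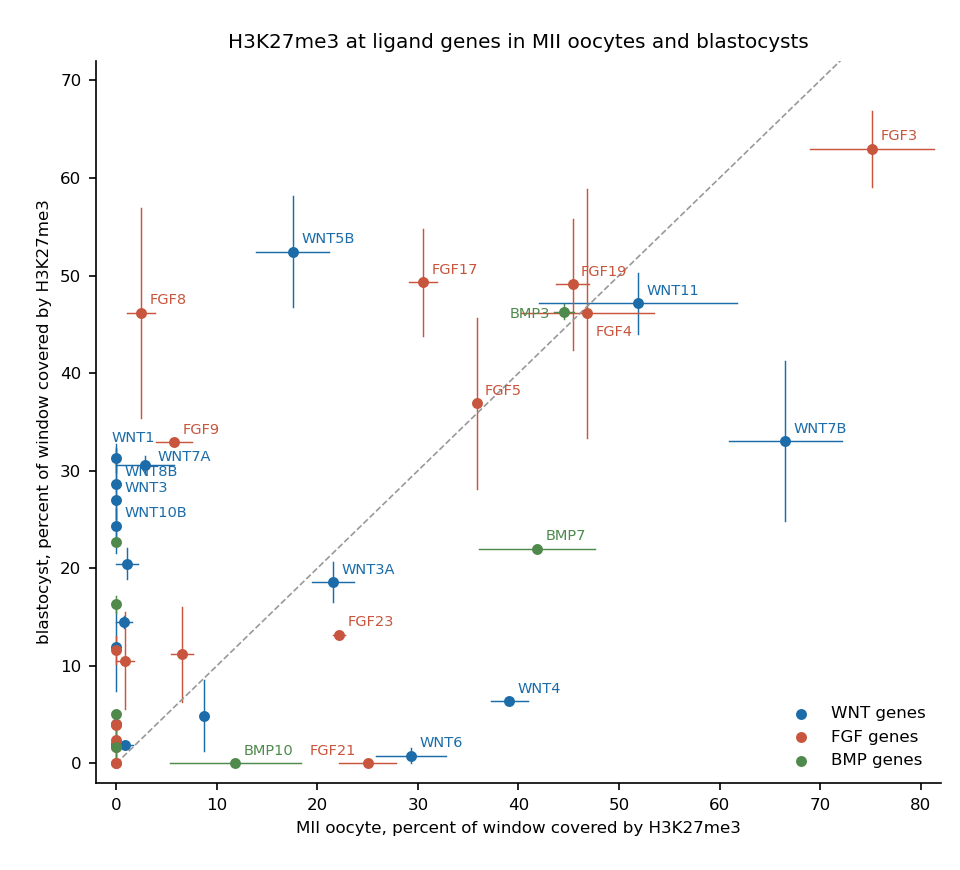
H3K27me3 as percent of the window covered in MII oocytes (horizontal axis) and in blastocysts (vertical axis) for the members, coloured by family. Points are means of 2 libraries, lines their range, and the dashed line marks equal values; WNT5B, FGF8, FGF9 and BMP6 lie above it, and WNT7B, WNT4, WNT6, FGF21 and BMP7 below it.

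Both marks were found at 34 of the 43 members in blastocysts, with a peak in both libraries of each mark, against 28.8% of all genes. In MII oocytes they were found at 20 members, against 16.3% of all genes, in 4-cell embryos at 7 (7.06%), in 8-cell embryos at 2 (3.45%) and in morulae at 13 (6.95%). In 2-cell embryos they were found at 0 members, against 0.323% of all genes. These counts follow those of H3K27me3 alone, which was in both libraries at 35 members in blastocysts, 20 in MII oocytes, 7 in 4-cell embryos, 2 in 8-cell embryos and 13 in morulae. By family, 38.9% of WNT, 55.6% of FGF and 42.9% of BMP genes carried both in oocytes, and 88.9%, 72.2% and 71.4% in blastocysts. The members with H3K4me3 but without H3K27me3 in both blastocyst libraries were WNT2B, WNT6, FGF21, FGF22 and BMP5. The marks were profiled in different libraries, so alleles or cells with 1 mark each and nucleosomes with both cannot be told apart. Without the first morula library the morula count was 20. With a −log10 q of 3 or more the count was 9 in blastocysts and 0 in oocytes, 4-cell embryos and morulae.

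The marks also met at the same bases. In blastocysts 29 members had bases under peaks in all 4 libraries, 31.495 kb in total and at most 2584 bp, at BMP4. In MII oocytes this held for 15 members and 24.062 kb, with at most 3637 bp, at WNT11, and in morulae for 5 members and 4.182 kb. The overlapping genes WNT1 and WNT10B each had 1180 bp in morulae and 2213 bp in blastocysts. These are the same bases, counted for both genes in the totals. In blastocysts, 30.2% of the bases under H3K4me3 at the members were also under H3K27me3, against 6.76% over all genes. H3K27me3 covered 19.9% of the member windows and 4.97% over all genes there, and the overlap was not tested against this. At WNT6 the blastocyst H3K4me3 lay mostly at the end with the lower coordinate (6427 and 7065 bp), and H3K27me3 was nearly missing from its window.

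**Figure D4:**
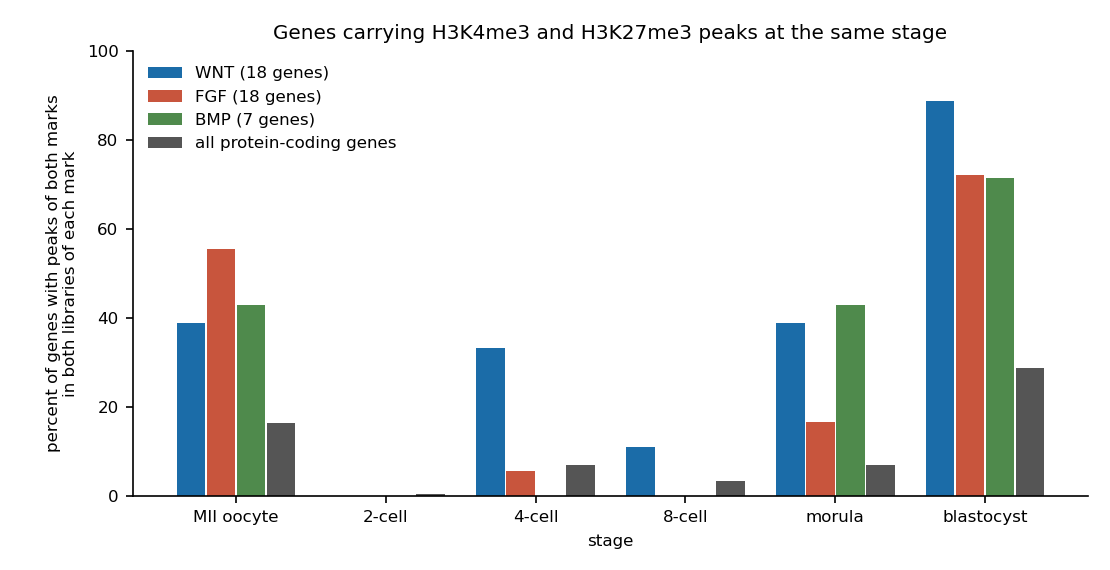
Share of genes with a peak of both marks in both libraries of each (vertical axis, percent) by stage (horizontal axis) for WNT, FGF and BMP genes and for all genes. The bars reach 88.9%, 72.2% and 71.4% in blastocysts against 28.8% for all genes, and are at 0 for the 3 families in 2-cell embryos.

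The wide H3K4me3 of siKDM5BC embryos was set against the places where the other libraries had peaks, as a description with no test. Bases under H3K4me3 in both untreated 4-cell libraries were nearly all also under it in both siKDM5BC libraries, at 99.95% for the members and 96.1% for all genes. Of the 236.071 kb under H3K4me3 in both siKDM5BC libraries at 40 members, 31.7% were marked in both untreated 4-cell libraries, 48.6% in 2-cell embryos and 49.1% in GV oocytes. Those 3 shares were 33.2%, 43.5% and 43.2% over all genes. The members differed more from all genes in H3K27me3: 30.1% of their siKDM5BC H3K4me3 bases were under H3K27me3 in MII oocytes and 37.2% in blastocysts, against 10.6% and 8.68% over all genes. Their windows also held more H3K27me3 as such, at 14.8% in MII oocytes and 19.9% in blastocysts, against 3.76% and 4.97% over all genes. Whether the overlap goes beyond this was not tested.

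Read the other way, 83.4% of the bases under oocyte H3K27me3 at the members (85.293 kb at 19 members) were under H3K4me3 in siKDM5BC embryos, with 87.4% for WNT, 86.8% for FGF and 63.6% for BMP genes and 79.2% over all genes, and 32.8% were under H3K4me3 in untreated 4-cell embryos. At FGF19 it was 4399 of 4399 bp, at FGF17 3055 of 3055 bp, at WNT7B 11339 of 11564 bp and at WNT11 6964 of 7172 bp. BMP7 was lower, with 2337 of 6117 bp. Of the 15 members that lost oocyte H3K27me3 by the 2-cell stage, 14 were called higher in siKDM5BC embryos, with WNT3A the exception, and of the other 27 tested members 10 were. Over all genes tested for H3K4me3 the same shares were 73.1% and 34.0%, so in these unscaled libraries the members follow a pattern seen across genes. The genes that did not lose the mark include those not tested for H3K27me3, among the members WNT2B, FGF7, FGF22 and BMP5. With quantile scaling 0 of the 24 siKDM5BC calls at members were kept. Bases under blastocyst H3K27me3 at the members were under siKDM5BC H3K4me3 for 76.3% of their length, against 50.9% over all genes. In siKDM5BC libraries H3K4me3 covered 35.2% of the member windows and 22.9% over all genes. Restricting peaks to a −log10 q of 3 or more lowered the share of siKDM5BC H3K4me3 bases under blastocyst H3K27me3 from 37.2% to 15.8%.

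Among the other genes of these pathways, H3K4me3 rose in siKDM5BC embryos at 5 of 15 tested WNT receptors and co-receptors, at 7 of 14 genes for WNT secretion and antagonists, and at 10 of 17 WNT transducers and targets. Among the secretion and antagonist genes the largest rises were at the WNT-inactivating enzyme NOTUM (54.7 points), the decoy receptor SFRP5 (53.2 points) and the LRP antagonist SOST (50.9 points), and among the transducers and targets at the transcription factor TCF7L1 (50.3 points) and the feedback inhibitor AXIN2 (45.2 points). It rose at 2 of 7 FGF receptors and co-receptors, the decoy FGFRL1 (55.2 points) and FGFR3 (34.1 points), and at 4 of 10 FGF feedback and target genes, led by ETV4 (46.9 points). For BMP genes it rose at 1 of 6 receptors (BMPR1B, 20.4 points) and at 5 of 12 transducers and targets, led by MSX2 (39.8 points) and MSX1 (36.2 points). These shares stand against 39.2% of all genes tested and 24 of 42 ligand genes, and they come from unscaled libraries; quantile scaling ended the ligand calls.

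H3K27me3 rose from morula to blastocyst at 8 of 9 tested genes for WNT secretion and antagonists, led by SFRP1 (29.7 points) and SFRP2 (28.1 points), at 4 of 8 WNT receptors, led by FZD2 (42.7 points), and at 7 of 9 WNT transducers and targets, led by SP5 (31.7 points). Among FGF genes 1 of 5 receptors (FGFR1) and 3 of 7 feedback genes rose, and among BMP genes 1 of 2 receptors (ACVR1), 4 of 6 antagonists, led by NOG (23.3 points), and 6 of 10 transducers and targets, led by MSX1 (65.7 points) and ID1 (47.7 points). The share over all genes tested was 44.2%, so the FGF receptors lay below it and the FGF feedback genes and the WNT and BMP receptors near it. From MII oocytes to 2-cell embryos it fell at 3 of 5 FGF receptors, with FGFR3 at -59.7 and FGFRL1 at -32.0 points, and at 6 of 9 genes for WNT secretion and antagonists, against 23.4% of all genes tested. It fell at 2 of 8 WNT receptors, 1 of 9 WNT transducers and targets, 1 of 7 FGF feedback genes, 0 of 2 BMP receptors and 3 of 10 BMP transducers and targets.

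Markers of other cell types were measured in the same way. Over 7 cumulus and granulosa genes, the summed H3K4me3 length was 9.507 to 16.851 kb in MII oocytes, 6.985 to 7.241 kb in untreated 4-cell, 20.518 to 22.202 kb in siKDM5BC and 7.708 to 7.9 kb in blastocyst libraries, with CYP19A1, the aromatase gene, at 0 in all groups. Its rise in siKDM5BC embryos went with that of the ligand genes, and its part in them was not tested. Over 7 oocyte genes the sum was 2.89 to 6.452 kb in untreated 4-cell and 17.431 to 18.305 kb in siKDM5BC libraries, with ZP4 and BMP15 at 0 in the latter.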

How the data were processed

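The deposited peak lists give, per library, peak positions, a −log10 p-value and −log10 q-value, and a fold enrichment (ratio over background), all as written by the authors' peak caller. Per the submitters' processing notes, Bowtie2 2.4.1, MACS2 and the build susScr11 were used. The authors' fold and score are used here only to filter peaks within a list. Library kits are named in the labels' protocols; read depth is not given in the sources used here.

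Peaks were merged per library, and the covered percent of each gene window was computed for 19484 genes. limma 3.58.1 (R 4.3.3) was fitted to percentages over all genes with a peak in at least 2 libraries of the mark (18229 for H3K4me3, 10519 for H3K27me3), with 1 mean per group, no scaling and no block, and with Benjamini-Hochberg adjusted p under 0.05 over all genes tested; calls rest on 2 libraries per group. The fit was tested on simulated data. The members and lists were chosen with earlier results of these data known. The comparisons 4-cell to blastocyst, 2-cell to siKDM5BC and H3K27me3 2-cell to 4-cell, the base-by-base overlaps and the fits without the 1-cell or the 8-cell stage were added after seeing the data. Values are printed, per comparison, for the 2 members of each family with the largest change and for members against the common direction; other members named in the text, FGF4 and FGF5 in siKDM5BC embryos among them, were named after their values were seen. The counts of BMP antagonists in siKDM5BC embryos and from MII oocytes to 2-cell embryos are not reported here.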

Additional observations from a re-analysis of the deposited data

How the results depend on the processing

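Of all settings run, only quantile scaling ended the siKDM5BC calls at WNT11, WNT7B, FGF19, FGF17, BMP7 and BMP3 against untreated 4-cell embryos. The cause of the shifts below was not tested. Quantile scaling and the q minimum also moved the counts over all genes, which stand with most comparisons above. In what follows, counts are members called, in the order H3K4me3 2-cell to 4-cell, MII oocyte to blastocyst, 4-cell to siKDM5BC, 4-cell to blastocyst, 2-cell to siKDM5BC, then H3K27me3. With quantile scaling there were 2 higher and 3 lower, 0 higher and 18 lower, 0 higher and 1 lower, 1 higher and 10 lower, and 0 higher; H3K27me3 rose at 13 from morula to blastocyst; BMP2 from 4-cell to blastocyst was at -4.66 points and BMP7 from 2-cell to siKDM5BC at -0.508. With a −log10 q of 3 or more there were 6 higher and 0 lower, 29 higher and 0 lower, 2 lower from 4-cell to blastocyst and 35 higher in siKDM5BC over 2-cell; 29 differed over the H3K4me3 stages and 13 over the H3K27me3 stages; H3K27me3 counts were 6 lower from MII to 2-cell, 9 higher from morula to blastocyst, 8 higher from MII to blastocyst and 0 from 2-cell to 4-cell; both marks were found at 0, 0, 0 and 9 members in oocytes, 4-cell embryos, morulae and blastocysts. Under it, 2-cell to 4-cell differences turned to 13.7 (WNT1), 7.17 (WNT5B), 10.8 (FGF21), 9.22 (FGF19), 12.03 (BMP7) and 8.87 points (BMP3), and MII to blastocyst ones to 21.7 (WNT1), 7.79 (FGF17) and 11.9 (BMP7). With a fold of 3.5 or more there were 0 lower, 10 higher and 0 lower, 2 higher and 0 lower from 4-cell to blastocyst, and 22 higher over 2-cell; H3K27me3 counts were 19 from morula and 12 higher from MII; both marks were at 8, 5 and 20 members in oocytes, morulae and blastocysts, and WNT5B from 2-cell to 4-cell was at 3.58 points. With no filter on low values H3K27me3 counts were 11 from morula, 10 higher and 3 lower from MII, 0 from 2-cell to 4-cell and 15 over the stages. With the groups compared alone there were 5 higher and 8 lower from MII to blastocyst in H3K4me3, 2 lower from 4-cell to blastocyst, and in H3K27me3 3 lower from MII to blastocyst and 0 from 2-cell to 4-cell. With arcsine values 5 members were higher from MII to blastocyst and 1 in siKDM5BC over 2-cell. With a 2.5 kb window there were 3 lower from 2-cell, 2 lower from MII, 2 higher from 4-cell to blastocyst, 11 over the H3K4me3 stages and 3 with both marks in 4-cell embryos; with a 10 kb window 5 were higher in siKDM5BC over 2-cell. With the larger end alone 0 were lower from 4-cell to blastocyst.

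The gap between the WNT and FGF means in blastocyst H3K4me3 (8.65 points) was 6.44 with the q minimum, 7.36 with the fold minimum, 13.5 at the larger end, and 10.96 and 5.01 with windows of 2.5 and 10 kb; in 4-cell H3K27me3 (3.58) it was 0, 6.99 at the larger end and 2.45 at 10 kb. H3K27me3 at the members over all genes was 11.01 points in MII oocytes and 14.9 in blastocysts; these were 5.14 and 5.26 with the q minimum, 9.98 and 10.2 with the fold minimum, 14.9 and 22.04 at the larger end, 14.9 and 19.1 at 2.5 kb and 8.69 and 9.73 at 10 kb. The share of oocyte H3K27me3 bases under siKDM5BC H3K4me3 ranged from 79.4% to 88.5%; that of siKDM5BC H3K4me3 under blastocyst H3K27me3 was 15.8% with the q minimum and 25.4% with the fold minimum; that of blastocyst under oocyte H3K27me3 ranged from 22.2% to 35.5%.

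With each library left out in turn, H3K4me3 counts ran from 0 to 0 higher and 0 to 7 lower (2-cell to 4-cell), 0 to 4 higher and 0 to 4 lower (MII to blastocyst), 11 to 25 higher (siKDM5BC), 1 to 4 higher and 0 to 1 lower (4-cell to blastocyst), 1 to 2 higher (siKDM5BC over 2-cell) and 14 to 27 over the stages. H3K27me3 counts ran from 13 to 14 lower (MII to 2-cell), 26 to 30 higher (morula to blastocyst), 16 to 21 higher and 6 to 7 lower (MII to blastocyst), 0 to 2 (2-cell to 4-cell) and 29 to 34 over the stages. Both marks ran from 20 to 23, 7 to 10, 13 to 20 and 34 to 36 members in oocytes, 4-cell embryos, morulae and blastocysts, and the 4 mean gaps above from 8.19 to 9.11, 3.10 to 4.06, 10.3 to 11.7 and 14.1 to 15.8 points. Without the first 4-cell library BMP7 from 4-cell to blastocyst was at 3.16 points, and without the second at -12.7. Without the 1-cell stage 25 members differed over the H3K4me3 stages, and without the 8-cell stage 34 over the H3K27me3 stages. Replicate numbers showed no pairing shared by all stages. Correlations of the replicate differences between groups ran from -0.277 (H3K4me3 1-cell with 4-cell) to 0.362 (H3K4me3 MII oocyte with 1-cell). With the replicate block 3 rather than 4 members were lower from MII to blastocyst, FGF17 being lost, 34 differed over the H3K27me3 stages (WNT3A lost), and the other counts were as without it. Behind equal counts, WNT10A (adjusted p = 0.0518) lost and WNT2 gained its call in siKDM5BC over 2-cell, and WNT11 lost and WNT8B gained theirs over the H3K4me3 stages. A window at the start site alone was not run, since the annotation used gives no strand. Depth is unknown, which limits all covered lengths.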

Other observations

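Lineage marker lists gave values that the ligand genes can be set beside. From MII oocytes to 2-cell embryos H3K27me3 fell at 6 of 6 tested trophectoderm, 4 of 6 hypoblast, 1 of 2 epiblast, 2 of 3 cumulus, 1 of 5 sperm and 0 of 4 oocyte genes, against 15 of 38 ligand genes and 23.4% of all genes tested. From morulae to blastocysts it rose at 3 of 6, 5 of 6, 1 of 2, 1 of 3, 0 of 5 and 2 of 4 genes of these lists, against 32 of 38 ligand genes and 44.2% of all genes. In siKDM5BC embryos H3K4me3 rose at 6 of 7, 3 of 6, 4 of 6, 3 of 6, 1 of 6 and 3 of 7 of them, against 24 of 42 ligand genes and 39.2% of all genes, in libraries without scaling. Quantile scaling ended the ligand calls. The 4 epiblast genes include NANOG, for which the difference of 16.5 points does not match its listed group means of 0% and 0%. Its call is therefore uncertain.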
